A study of Mus musculus with 6 samples.

Results

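The mitochondrial ribosomal protein genes were taken as all genes with a symbol of the form Mrpl or Mrps followed by a number, and 76 of the 18193 genes on the array met that rule. Of these, 47 carried an Mrpl symbol (large ribosomal subunit) and 29 an Mrps symbol (small subunit). Only probe sets assigned to a single symbol were used, and each gene was read through its probe set of highest mean over all 6 arrays. The choice of probe set used overall brightness, not the difference between the groups. The family itself was chosen with earlier results of these data known.

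Mitochondria keep a small genome that encodes core subunits of the respiratory chain, and they translate it on ribosomes of their own. The ribosomal RNAs of these particles come from mitochondrial DNA, whereas their proteins are all encoded in the nucleus, made in the cytosol and imported. Some of the proteins have counterparts in bacterial ribosomes and others are found only in mitochondria. Blood stem cells are known for low mitochondrial activity, and red cell precursors depend on mitochondria for haem synthesis.

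The RNA came from blood-forming stem and progenitor cells of mouse bone marrow, sorted by flow cytometry for c-Kit and Sca1 and against lineage markers. The first group came from Med12Flox;MxCre mice, in which pI:pC, an inducer of interferon, switches on the Mx promoter and the Cre recombinase it drives, so that Med12 is deleted in interferon-responsive cells and not in blood cells alone. The second group was control cells, whose genotype and Cre status the labels do not give. All mice were of a B6/129 background, the cells of each group were taken 4 days after pI:pC, and each group had 3 arrays made from 5 ng of amplified total RNA; ages and pooling are not given. The Med12 protein belongs to the kinase module of Mediator, the bridge from gene-specific activators to the polymerase. The comparison asked which genes depend on Med12 in these cells. Nothing says that the arrays came from separate animals, so the p-values rest on a spread between samples that may be technical. In sorted cells, fewer cells of a type and less RNA per cell cannot be told apart.

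On the whole array, 343 of 45037 probe sets (0.762%) passed limma's test at an adjusted p of 0.05, and by gene 64 (0.352%) were higher and 116 (0.638%) lower in knockouts. Med12 had signals of 89.1, 100.4 and 86.4 on the knockout arrays, against 278.6, 837.4 and 441.6 on the control arrays, with limma's adjusted p at 0.0796. The trimmed mean signal was 150 on all arrays, while the median signal was 16.6 to 21.3 on knockout arrays and 26.7 to 26.9 on control arrays. The 3′ to 5′ ratio of the Gapdh control probe sets was 1.39 to 1.77 in knockouts and 1.38 to 1.52 in controls. Of the markers of the sorted cells, Kit had signals of 514.8 to 617.5 in knockouts and 805.2 to 1425 in controls, and Flt3 of 13.8 to 125.9 in knockouts and 657.1 to 1088 in controls. Of the 8 such markers measured, 7 had a lower mean log2 signal in knockouts, 4 of them without overlap. The remaining 1 was higher, with a log2 difference, knockout minus control, of 0.49. Of all 18193 genes, 10509 had a lower mean log2 signal in knockouts, and in 13.5% all knockout arrays lay below all control arrays. Ly6a, which encodes Sca1, was not analysed here.

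Transcription of many nuclear genes for mitochondrial proteins starts from promoters with sites for NRF1, for the ETS factor GABPA and for YY1. Promoter windows of RefSeq (GRCm38.p6, 250 bases before to 50 after the start) matched 67 of the 76 genes. The 8 stretches below lie just before the start, are read 5′ to 3′ on the gene's strand, and have 1 kind of matched letters in capitals. They were printed for members with large differences between the groups that hold a match there, for the lower Mrpl58, for the stalk protein gene Mrpl12, and for Mrps11 because it shares its start region with another member. In Mrps22, Mrpl22, Mrpl43 and Mrpl58 the capitals mark the ETS letters CCGGAAG. In Mrpl17, Mrpl57 and Mrpl12 they mark the NRF1 letters, GCGCA and GCGC parted by any base, which in Mrpl12 lie on the opposite strand and so appear as their reverse complement, and in Mrps11 the SP1 letters GGGCGG. Mrps22 lies at chr9:98601680-98601799 (minus strand), Mrpl22 at chr11:58171544-58171663 (plus), Mrpl43 at chr19:45006443-45006552 (minus) and Mrpl58 at chr11:115403632-115403751 (plus). Mrpl17 lies at chr7:105811088-105811207 (minus), Mrpl57 at chr14:57826164-57826238 (plus), Mrpl12 at chr11:120484517-120484636 (plus) and Mrps11 at chr7:78783090-78783130 (plus).
Mrps22: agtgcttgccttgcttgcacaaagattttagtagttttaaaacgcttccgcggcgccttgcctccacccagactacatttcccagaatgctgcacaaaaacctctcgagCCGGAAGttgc
Mrpl22: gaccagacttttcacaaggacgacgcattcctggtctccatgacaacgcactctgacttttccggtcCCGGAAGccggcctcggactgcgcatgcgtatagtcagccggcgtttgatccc
Mrpl43: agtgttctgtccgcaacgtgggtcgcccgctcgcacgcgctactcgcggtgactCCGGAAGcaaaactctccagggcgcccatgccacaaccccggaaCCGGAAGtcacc
Mrpl58: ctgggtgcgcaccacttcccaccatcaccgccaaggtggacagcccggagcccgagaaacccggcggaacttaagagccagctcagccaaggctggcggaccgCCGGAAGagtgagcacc
Mrpl17: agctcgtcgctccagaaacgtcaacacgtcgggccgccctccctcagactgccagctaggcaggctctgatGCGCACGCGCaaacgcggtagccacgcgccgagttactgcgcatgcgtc
Mrpl57: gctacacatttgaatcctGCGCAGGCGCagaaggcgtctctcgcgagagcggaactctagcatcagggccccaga
Mrpl12: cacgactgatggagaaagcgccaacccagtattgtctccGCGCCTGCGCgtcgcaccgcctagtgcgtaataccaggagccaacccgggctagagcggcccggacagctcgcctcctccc
Mrps11: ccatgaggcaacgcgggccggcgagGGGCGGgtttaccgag

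Over whole windows and both strands, the ETS letters were found in 25 of the 67 members (37.3%) and in 12.9% of 17491 protein-coding genes with a window. The YY1 letters AAGATGGC were in 12 members (17.9%) and 3.57% of coding genes, and the NRF1 letters in 12 members (17.9%) and 7.17% of coding genes. The SP1 letters were in 50.7% of members and 49.2% of coding genes, the CCAAT letters in 38.8% and 42.3%, and the E-box CACGTG, read by MYC and other factors, in 7.46% and 8.91%. No motif of the set contains another, although neighbouring matches may share end letters. The ETS letters were in 10 of 29 members whose knockout arrays all lay above the control arrays and in 15 of the other 38. For the same 29 and 38 members the counts were 7 and 5 for YY1, 5 and 7 for NRF1, and 4 and 1 for the E-box. They were 17 and 17 for SP1 and 10 and 16 for CCAAT. Whether any motif differed between these members was not tested. A match is a description of the letters and does not show binding.

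Most mitochondrial ribosomal protein genes had a higher mean signal in Med12 knockouts, by small amounts, and no single gene passed the test. The mean log2(signal + 16) was higher in knockouts for 68 of 76 members (89.5%), against 42.2% of all genes. That count was 73 with each array centred on its median, 67 with quantile and 65 with loess normalization. The median log2 difference, knockout minus control, was 0.38 over the members (1.30-fold) and -0.05 over all genes. Relative to the median of all genes the members stood at 0.44, or 0.34 after quantile and 0.31 after loess normalization, while median centring moved the median of all genes to 0.22. In 32 members (42.1%) all 3 knockout arrays lay above all 3 control arrays, against 9.85% of all genes. In 1 member (1.32%) all lay below, against 13.5% of all genes. The members lie in the brighter range of the array. Among the 7866 genes at or above the mean log2 signal of the dimmest member, 55.6% had a higher mean in knockouts, 17.7% had all knockout arrays above all control arrays, 12.6% had all below, and the median difference was 0.06. Whether the members differed from those genes was not tested.

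By limma's test 0 of 76 members passed in either direction after Benjamini-Hochberg adjustment over all 45037 probe sets; of the brighter genes 0.572% passed higher and 0.661% lower. At an unadjusted p under 0.05, 27 members (35.5%) were higher, against 7.83% of all genes and 14.4% of the brighter genes. At that level 1 member (1.32%) was lower, against 10.3% of all genes and 11.0% of the brighter genes. The half-width of the 95% interval of a member's log2 difference had a median of 0.47 over the 76. The lowest adjusted p values among members were 0.0893 (Mrps28), 0.0933 (Mrps11) and 0.0996 (Mrps18b), followed by 0.102 for Mrpl37, and none was inside the threshold.

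**Figure D1:**
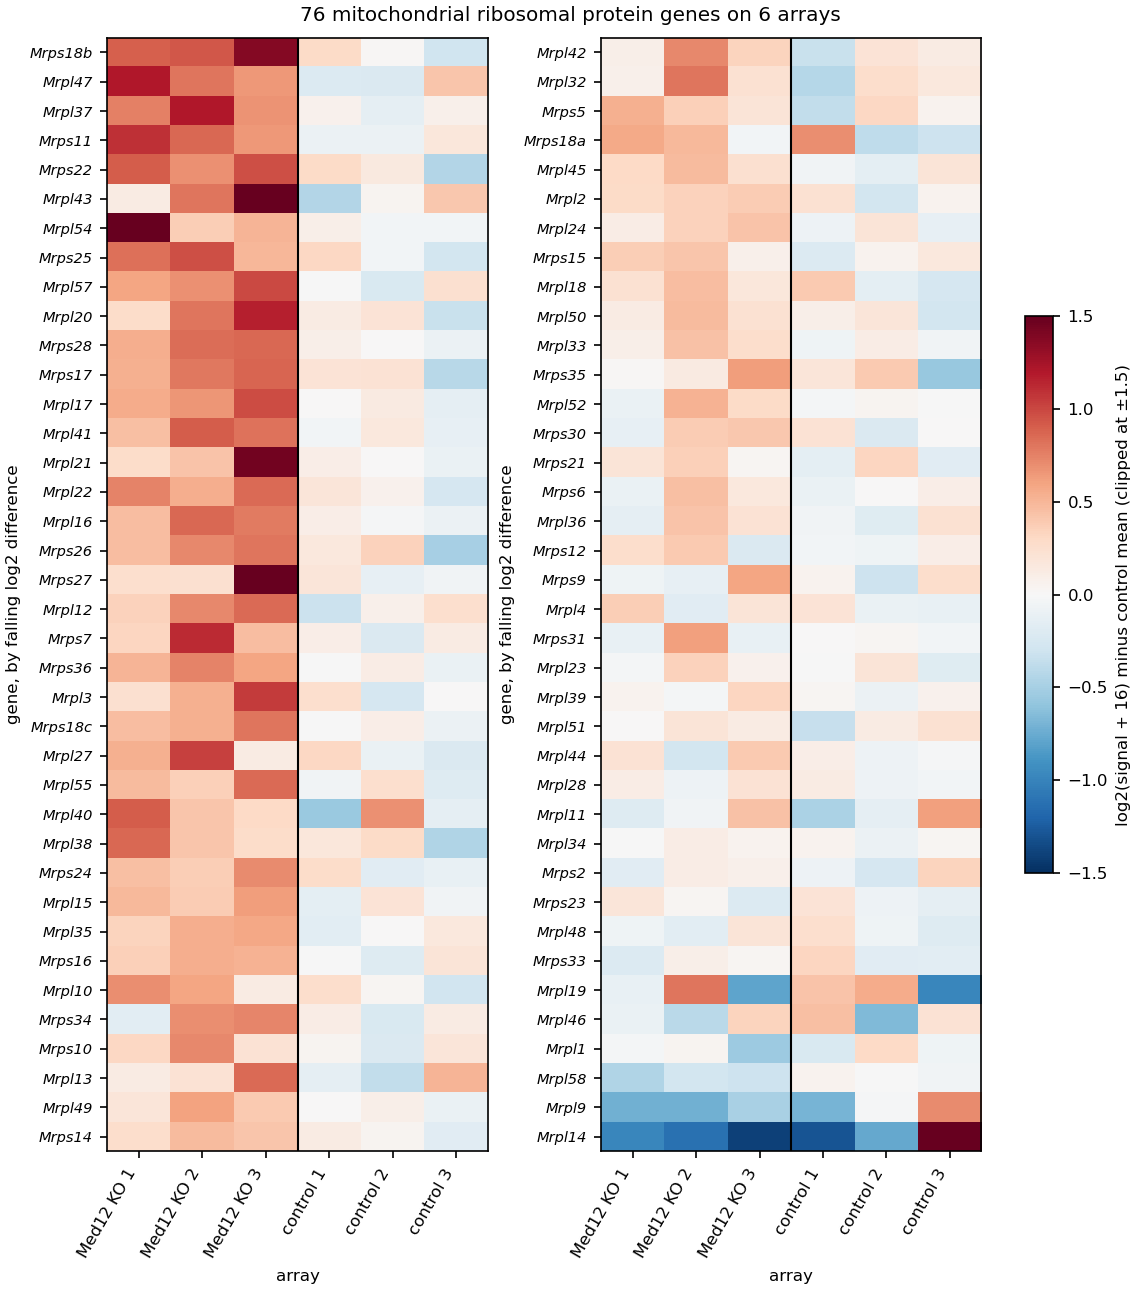
Log2(signal + 16) of each of the 76 genes on each array (columns, 3 Med12 KO arrays and then 3 control arrays), minus the gene's control mean; red is above and blue below that mean, and colours are clipped at 1.5. Genes run down by their log2 difference, and in 32 of them all knockout arrays lie above all control arrays.

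The shift appeared on each knockout array with unequal size. The median member stood 0.26, 0.46 and 0.39 log2 units above its control mean on knockout arrays 1, 2 and 3, and at 0.04, 0.00 and -0.05 on control arrays 1, 2 and 3. The summed signal of the 76 genes was 61086, 70958 and 72742 on the knockout arrays, or 0.702%, 0.771% and 0.803% of all probe set signal. On the control arrays the sum was 52391, 53507 and 56592, or 0.586%, 0.593% and 0.598%. The lowest knockout array thus lay above the highest control array in this sum. Of the 76 genes, 29 were highest on knockout array 3, 27 on knockout array 2, 8 on knockout array 1 and 12 on a control array. The coefficient of variation of a member between arrays of its group had a median of 16.2% in either group.

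Among small subunit proteins with a bacterial counterpart, 17 of 17 had a higher mean log2 signal in knockouts (16 with quantile or loess normalization), with a median log2 difference of 0.41. In 10 of the 17 all knockout arrays lay above all control arrays, against 9.85% of all genes and 17.7% of the brighter genes. That count was 4 of 9 small subunit proteins found only in mitochondria. In the large subunit it was 10 of 28 with a bacterial counterpart and 6 of 19 without. Mrps18b, one of 3 mammalian proteins related to bacterial S18, had the largest difference of all members. Its signals were 713.6, 734.1 and 1000.3 in knockouts, against 461.4, 381.4 and 302.4 in controls, and the groups did not overlap. The means were 816 ± 160 in knockouts and 382 ± 79.5 in controls (SD, n = 3 each). The log2 difference was 1.07 (SE 0.21; limma adjusted p = 0.0996). Mrps11, the counterpart of a platform protein of the bacterial small subunit, had signals of 370.6, 313.0 and 267.4 in knockouts and 154.3, 154.5 and 188.4 in controls. Every knockout array was again above every control array (log2 difference 0.87, SE 0.17; limma adjusted p = 0.0933), and its second, dim probe set was at 0.47.

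Mrps28, counted among the conserved proteins as the relative of bacterial S1, had signals of 937.6, 1145.8 and 1169.0 in knockouts and 674.7, 638.4 and 596.0 in controls. Its log2 difference was 0.75 (SE 0.14; limma adjusted p = 0.0893). Human MRPS28, MRPS2, MRPS14 and MRPS16 variants are known from inherited respiratory chain deficiency. The mouse genes for the last 3 had log2 differences of 0.01, 0.38 and 0.48. Mrps17 had signals of 668.8, 801.2 and 845.8 in knockouts and 529.1, 530.9 and 336.3 in controls (log2 difference 0.73; limma adjusted p = 0.196). Mrps12, whose bacterial counterpart helps read the codon, was at 0.15 with overlapping groups.

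The 3 relatives of S18 differed in their values. Mrps18c had signals of 1780.8, 1880.4 and 2256.7 in knockouts and 1280.0, 1387.4 and 1207.6 in controls, without overlap (log2 difference 0.60; limma adjusted p = 0.133). Mrps18a, whose protein sits in the large subunit despite its name, had 561.3, 533.3 and 364.0 in knockouts and 615.4, 284.3 and 298.7 in controls. The highest of its 6 values was a control array, and the 95% interval of its log2 difference of 0.34 ran from -0.50 to 1.17. Leaving out control arrays 1, 2 or 3 gave Mrps18a differences of 0.68, 0.15 and 0.18, and leaving out knockout array 3 gave 0.53. That interval includes the difference of Mrps18b, and no test between the paralogs was made.

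Of 9 small subunit proteins found only in mitochondria, 8 had a higher mean log2 signal in knockouts and 1 a lower one, with a median log2 difference of 0.42. Mrps22, mutated in human respiratory chain deficiency, had signals of 532.0, 454.2 and 557.1 in knockouts and 342.2, 308.9 and 199.9 in controls (log2 difference 0.85, SE 0.22; limma adjusted p = 0.157). Mrps25 had signals of 654.8, 720.9 and 519.4 in knockouts and 453.4, 353.0 and 296.7 in controls, and its 3 probe sets were at 0.76, 0.61 and 0.62, all without overlap. Mrps26 was at 0.67 (limma adjusted p = 0.278) and at 0.42 without control replicate 3. Mrps27, an RNA-binding pentatricopeptide repeat protein, had signals of 190.0, 188.2 and 471.9 in knockouts and 179.8, 142.2 and 150.7 in controls. Its groups did not overlap, yet knockout array 3 alone stood far above the controls, and the log2 difference was 0.66 with all arrays and 0.25 without knockout replicate 3. Mrps33 was the lower one, at -0.03, and turned positive after median centring.

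Of 28 large subunit proteins with a bacterial counterpart, 24 had a higher mean log2 signal in knockouts and 4 a lower one, with a median log2 difference of 0.35. Mrpl47, the relative of bacterial L29 beside the exit of the protein tunnel, had signals of 790.7, 596.1 and 537.2 in knockouts and 290.2, 287.3 and 453.7 in controls. The groups did not overlap (log2 difference 0.88, SE 0.24; limma adjusted p = 0.170). Mrpl22 and Mrpl17, which also have bacterial counterparts near that exit, were at 0.71 and 0.73, each without overlap. Mrpl22 had signals of 787.8, 684.4 and 852.0 in knockouts and 532.2, 488.8 and 388.0 in controls. Mrpl16 had 1272.6, 1679.6 and 1586.1 in knockouts and 984.1, 905.6 and 865.4 in controls (log2 difference 0.70, SE 0.15; limma adjusted p = 0.110). Mrpl20 was at 0.75 (limma adjusted p = 0.268), with knockout signals of 723.0 to 1353.9 and control signals of 469.5 to 689.3. Both the stalk proteins, which in bacteria recruit translation factors, had positive differences. Mrpl12 had signals of 793.8, 1030.7 and 1131.8 in knockouts and 492.1, 655.1 and 744.4 in controls, without overlap (log2 difference 0.64; limma adjusted p = 0.240). Mrpl10 had 665.2, 620.9 and 441.5 in knockouts and 490.4, 412.2 and 327.9 in controls, where the groups overlapped (log2 difference 0.47; limma adjusted p = 0.385).

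Of 19 large subunit proteins without a bacterial counterpart among ribosomal proteins, 16 had a higher mean log2 signal in knockouts and 3 a lower one, with a median log2 difference of 0.34. Mrpl37 had signals of 287.3, 394.3 and 269.2 in knockouts and 170.6, 147.6 and 172.1 in controls (log2 difference 0.88, SE 0.18; limma adjusted p = 0.102). Mrpl57 had 1144.1, 1221.5 and 1512.7 in knockouts and 748.3, 636.4 and 890.3 in controls, and its second probe set was at 0.00. Mrpl41 had 1369.7, 1884.4 and 1774.7 in knockouts and 970.6, 1121.2 and 918.0 in controls, and its next probe set was at 0.90, so that the pair shared direction and size. Mrpl43 had signals of 474.5, 772.5 and 1266.0 in knockouts and 316.3, 447.9 and 578.4 in controls, which overlapped (log2 difference 0.81; limma adjusted p = 0.401). Without knockout replicate 3 its difference was 0.46. Mrpl54 had 543.8, 240.9 and 267.3 in knockouts and 194.8, 176.5 and 176.9 in controls (log2 difference 0.79; limma adjusted p = 0.301), and 0.44 without knockout replicate 1. Mrps30, whose protein lies in the large subunit, was counted here and was at 0.22. Mrps18a, Mrpl55 and Mrps36 were counted apart from the groups above, although the proteins of Mrps18a and Mrpl55 also lie in the large subunit. Mrpl55 was at 0.56 and Mrps36, whose protein is now known as a part of the 2-oxoglutarate dehydrogenase complex, at 0.62 (SE 0.13; limma adjusted p = 0.107).

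**Figure D2:**
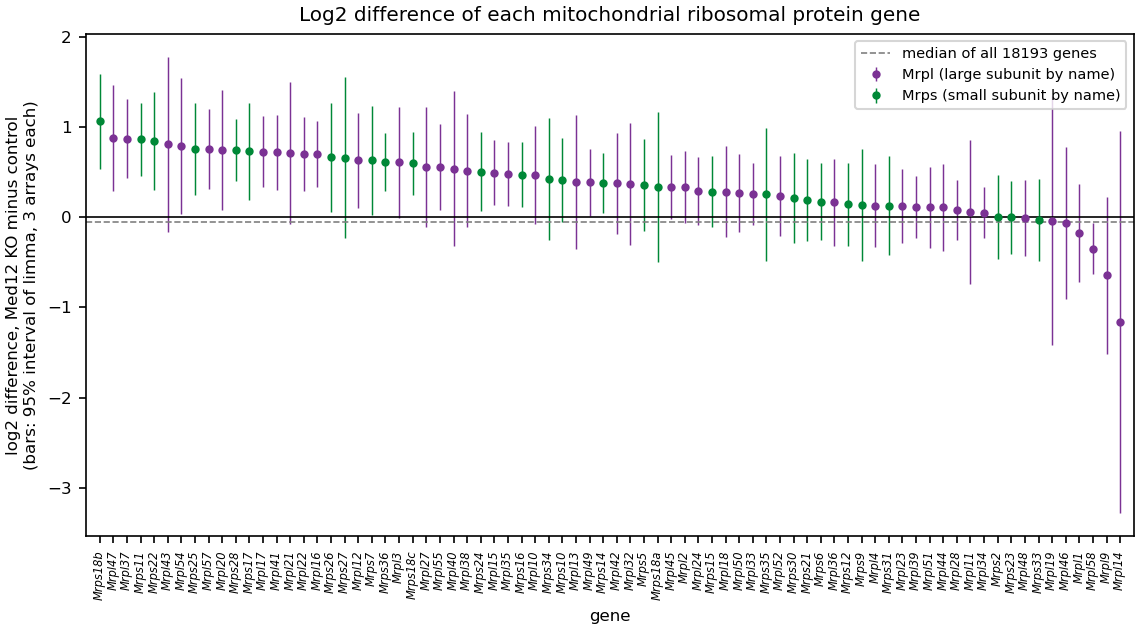
Log2 difference, Med12 KO minus control, of each of the 76 genes with its 95% interval from limma (3 arrays each), in falling order; purple marks Mrpl and green Mrps symbols, and the dashed line is the median of all genes. Differences run from 1.07 for Mrps18b to -1.16 for Mrpl14, and intervals of 28 genes leave out 0.

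A lower mean log2 signal in knockouts was found in 8 members, and Mrpl58 was the only member whose knockout arrays all lay below its control arrays. Mrpl58 encodes a peptidyl-tRNA hydrolase built into the large subunit that frees stalled chains. It had signals of 402.5, 459.4 and 447.2 in knockouts and 580.9, 554.7 and 539.1 in controls (log2 difference -0.35, SE 0.12; limma adjusted p = 0.242). Its second, dim probe set was at -0.25, and median centring moved the difference to -0.07. Mrpl14 had the most negative difference, -1.16 (SE 0.87; limma adjusted p = 0.590), with signals of 182.4, 164.2 and 131.8 in knockouts and 142.8, 214.2 and 1611.3 in controls. Control array 3 was 9.03 times the mean of the other control arrays, the groups overlapped, and the log2 difference was -0.13 without that array and -1.81 without control replicate 1. Mrpl9 had 648.5, 647.6 and 767.2 in knockouts and 659.7, 1066.9 and 1779.1 in controls (log2 difference -0.64; limma adjusted p = 0.457). It stood at -0.29 without control replicate 3 and -0.99 without control replicate 1, and further probe sets of the gene stood at 0.12 and 0.35. Mrpl46 (-0.06), Mrpl19 (-0.03), Mrps33 (-0.03) and Mrpl48 (-0.01) lay near 0, Mrpl1 was at -0.18, and each of these changed sign under at least 1 alternative setting. The further probe sets of Mrpl1 stood at -0.20 and, in a dim one, -0.98. With the mean of its probe sets Mrpl1 was at -0.45 (limma adjusted p = 0.268).

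**Figure D3:**
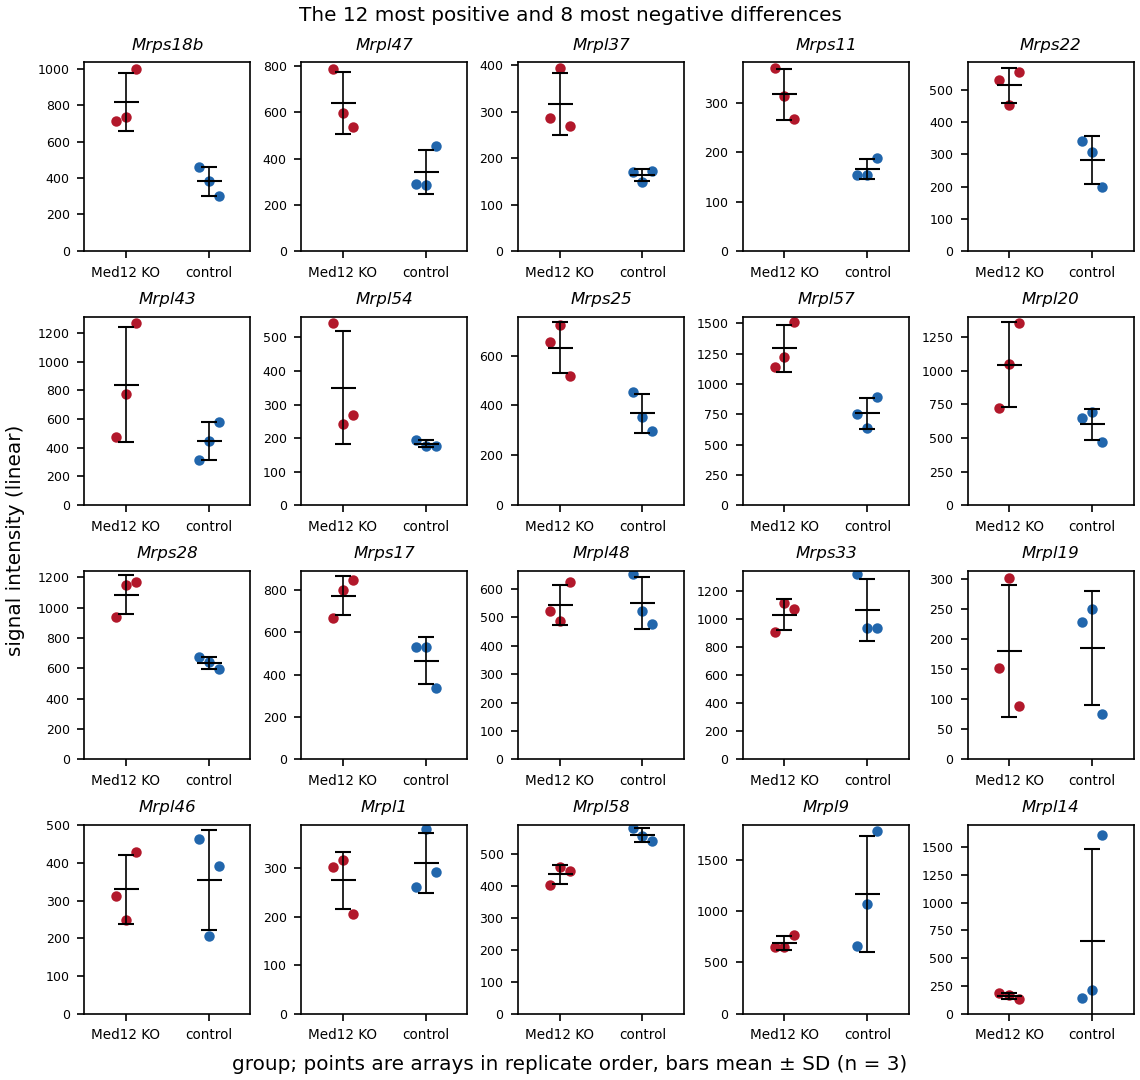
Deposited signal of the 12 members with the most positive and the 8 with the most negative log2 difference; points are arrays (red Med12 KO, blue control), black marks are mean ± SD (n = 3), and each panel has its own axis from 0. Control array 3 stands alone for Mrpl14, at 1611.3.

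Probe sets of a gene did not always share a direction. Of the 76 members, 42 had more than 1 probe set, with 80 further probe sets in all. Of the 61 further probe sets with a mean signal of 16 or more, 39 had the sign of the chosen probe set, and 0 of the 80 passed limma's test, with 44 of all 156 probe sets of the family at an unadjusted p under 0.05 in either direction, against 15.7% of all probe sets tested. Mrpl52, a protein found only in mitochondria, was at 0.23 with overlapping groups by its chosen probe set, while others stood at 0.48 and 0.68 without overlap. The chosen probe set was at 0.40 without knockout replicate 1 and 0.092 without knockout replicate 2. The other members of highest signal, Mrpl33, Mrpl51 and Mrpl11, were at 0.26, 0.11 and 0.06, all with overlapping groups. Mrpl11 was read by a probe set whose suffix marks possible cross-hybridisation, and another without that suffix stood at 0.48. Mrps23 was at 0.00 by the chosen probe set, of the same kind, and at 0.59 and 0.44 by its others. Mrpl19 was at -0.03 by a probe set with signals of 88.9 to 302.7 in knockouts and 76.3 to 251.0 in controls, and at 0.45 and 0.81 by the next ones, both without overlap. Of the chosen probe sets 10 carry a suffix that marks shared sequence, and their values may include related transcripts. With the mean of a gene's probe sets in place of the chosen one, Mrpl17 was at 0.37, Mrpl57 at 0.38, Mrpl54 at 0.20, Mrps26 at 0.31, Mrpl33 at 0.034, Mrpl52 at 0.48 and Mrpl9 at -0.059. Mrpl44 was within 0.2 of 0 in all 4 of its probe sets.

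Of 4 further mitoribosome proteins under other names, 4 had a higher mean log2 signal in knockouts and 0 passed, with a median of 0.35. The small subunit GTP-binding protein gene Dap3 had signals of 712.7, 602.9 and 809.6 in knockouts and 581.4, 428.8 and 404.6 in controls (log2 difference 0.58; limma adjusted p = 0.236). Chchd1 was at 0.52, Gadd45gip1 at 0.19 and Ptcd3 at 0.15. Of 30 genes grouped here under assembly and ribosomal RNA modification, 24 were higher, 6 lower and 0 passed, with a median of 0.24. Tbrg4 (0.70), Mterf4, which brings a methyltransferase to the large subunit (0.67), the RNA methyltransferase gene Trmt61b (0.53) and the small subunit assembly GTPase gene Eral1 (0.41) had the lowest p values. Tbrg4 had signals of 1324.0, 1544.0 and 1514.9 in knockouts and 881.8, 1024.7 and 778.8 in controls (limma adjusted p = 0.110).

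Of 19 mitochondrial aminoacyl-tRNA synthetase genes, which charge the tRNAs, 15 were higher, 4 lower and 0 passed, with a median log2 difference of 0.41. Tars2 was at 1.05 (limma adjusted p = 0.152), Wars2 at 0.71, Fars2 at 1.22 and Yars2 at 0.62. Of 12 translation factor genes 8 were higher and 0 passed (median 0.14). Pdf, the peptide deformylase gene, was at 0.38 and Tsfm at 0.60, while the elongation factor gene Tufm was at 0.67 and Gfm2 at 0.19; among these 4 only in Pdf did the groups not overlap. Of 20 import and matrix chaperone genes, through whose products ribosomal proteins enter mitochondria, 18 were higher and 0 passed (median 0.36). In 11 of the 20 all knockout arrays lay above all control arrays, against 32 of the 76 members, 9.85% of all genes and 17.7% of the brighter genes. That count was 4 of the 19 synthetase genes, 1 of the 12 translation factor genes and 8 of the 30 assembly and modification genes. Timm23 had signals of 1376.8, 1481.6 and 1612.6 in knockouts and 989.3, 797.7 and 962.2 in controls (log2 difference 0.70; limma adjusted p = 0.102). Tomm40 was at 0.85, Timm17a at 0.78 and Timm10 at 0.92.

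Of 12 genes for replication and transcription of mitochondrial DNA, 8 were higher and 0 passed, with a median of 0.05 and 0 without overlap. Polrmt, the mitochondrial RNA polymerase, was at 0.71 and Tfam at 0.36, with Polg at 0.30 and Mgme1 at 0.26. Of 10 regulators of mitochondrial biogenesis 6 were higher and 0 passed (median 0.07, or 0.00 with 5 higher after loess normalization). In 2 of the 10, Esrra and Myc, all knockout arrays lay below all control arrays. The same held for 13.5% of all genes and 12.6% of the brighter genes. Esrra, a nuclear receptor of mitochondrial genes, had signals of 50.6, 53.8 and 33.1 in knockouts and 73.0, 123.4 and 111.8 in controls (log2 difference -0.93; limma adjusted p = 0.145). Myc had 1353.2, 1410.6 and 1283.2 in knockouts and 1513.3, 1858.4 and 2226.3 in controls (log2 difference -0.45; limma adjusted p = 0.291). Ppargc1a was at -0.53 and Gabpb2 at 0.39.

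The direction of the cytosolic ribosomal proteins, the nearest family by function, depended on the scaling. Of 49 measured, 11 had a higher and 38 a lower mean log2 signal in knockouts, 0 passed, and the median log2 difference was -0.19. With loess normalization 11 were higher (median -0.24), with quantile normalization 25 (median 0.01) and with median centring 40 (median 0.08). The summed signal overlapped between the groups, at 130405 to 170748 in knockouts and 156778 to 199451 in controls. These 49 were taken by the form of their symbols, so they may include relatives of ribosomal proteins and need not be the whole family. Of those named by p, Rpl39 was at -0.83, Rpl7l1 at 0.45, Rps25 at 0.92 and Rps4l at 0.64, although 38 of the 49 had a lower mean. Of 78 nuclear subunits of the respiratory chain and ATP synthase, 59 were higher and 19 lower, with a median of 0.15. In 23 of the 78 all knockout arrays lay above all control arrays, against 9.85% of all genes. In 5 all lay below, against 13.5% of all genes. Cox6a2, a cytochrome oxidase isoform typical of muscle, fell to signals of 43.1, 57.0 and 34.6 in knockouts, against 187.7, 247.1 and 223.3 in controls (log2 difference -1.96; limma adjusted p = 0.0303), and 77 did not pass. Ndufa9 (0.52), Ndufa8 (0.56) and Uqcrc2 (0.67) were the next by p. Whether the mitochondrial ribosomal protein genes differed from these lists was not tested.

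**Figure D4:**
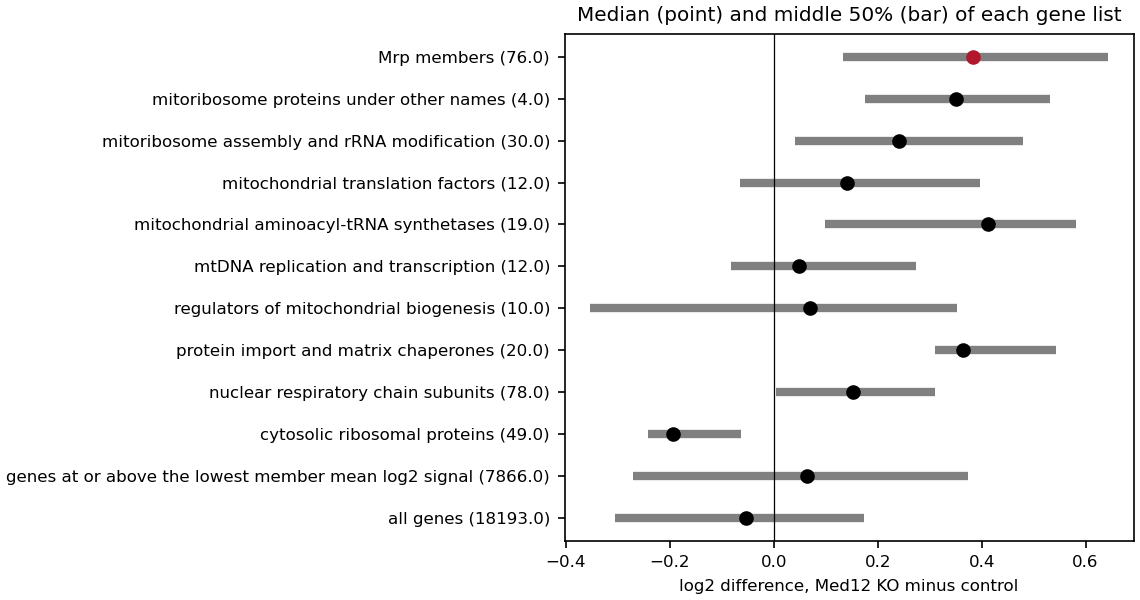
Median (point) and middle 50% (bar) of the log2 difference, Med12 KO minus control, for the mitochondrial ribosomal protein genes (red), related lists, the bright genes and all genes, with the number of genes in brackets. The red point lies at 0.38 and the cytosolic ribosomal proteins at -0.19, a sign that turned with median centring and quantile normalization.

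Of the 67 members with a promoter window, 24 had their start within 1000 bases of the start of a coding gene transcribed in the opposite direction. Of 22 such partners outside the family, 12 had a higher and 10 a lower mean log2 signal in knockouts, with a median of 0.06. By limma's test 0 passed, and 4 had an unadjusted p under 0.05 in either direction. At that level 7.83% of all genes were higher and 10.3% lower. A higher mean was found in 42.2% of all genes and 55.6% of the brighter genes. Of the 22 members beside the partners, 20 were higher. Some partners were dim, such as Tmem63b (signals of 13 to 55.8) and Sars2 (23.4 to 71.2). Others were bright, such as Tcp1 (2571 to 3343.5). The log2 values used understate changes of dim genes, so partner values cannot be set directly against those of the members. Mrpl46 and Mrps11 start 42 bases apart on chromosome 7, and the stretch printed for Mrps11 is what lies between. Mrpl46 had signals of 313.0, 249.1 and 428.1 in knockouts and 464.1, 206.6 and 392.0 in controls (log2 difference -0.06), while Mrps11 was at 0.87. Mrpl43 was at 0.81 and its neighbour Twnk, the mitochondrial DNA helicase gene, at 0.00, with starts 116 bases apart. Mrpl57 (0.76) and the spindle gene Ska3 (0.69), 76 bases apart, had near values, as did Mrps18c (0.60) and the helicase gene Helq (0.70). The signals of Ska3 were 65.3 to 188 and those of Helq 33.5 to 115.5. Other pairs had opposite signs, such as Mrpl41 (0.72) and Pnpla7 (-1.44), and Mrps18b (1.07) and Ppp1r10 (-0.99). Pnpla7 had the lowest p of the partners (limma adjusted p = 0.0595), with all knockout arrays below all control arrays. Mrps12 (0.15) and the seryl-tRNA synthetase gene Sars2 (-0.10) also share a start region. The difference within pairs was not tested.

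**Figure D5:**
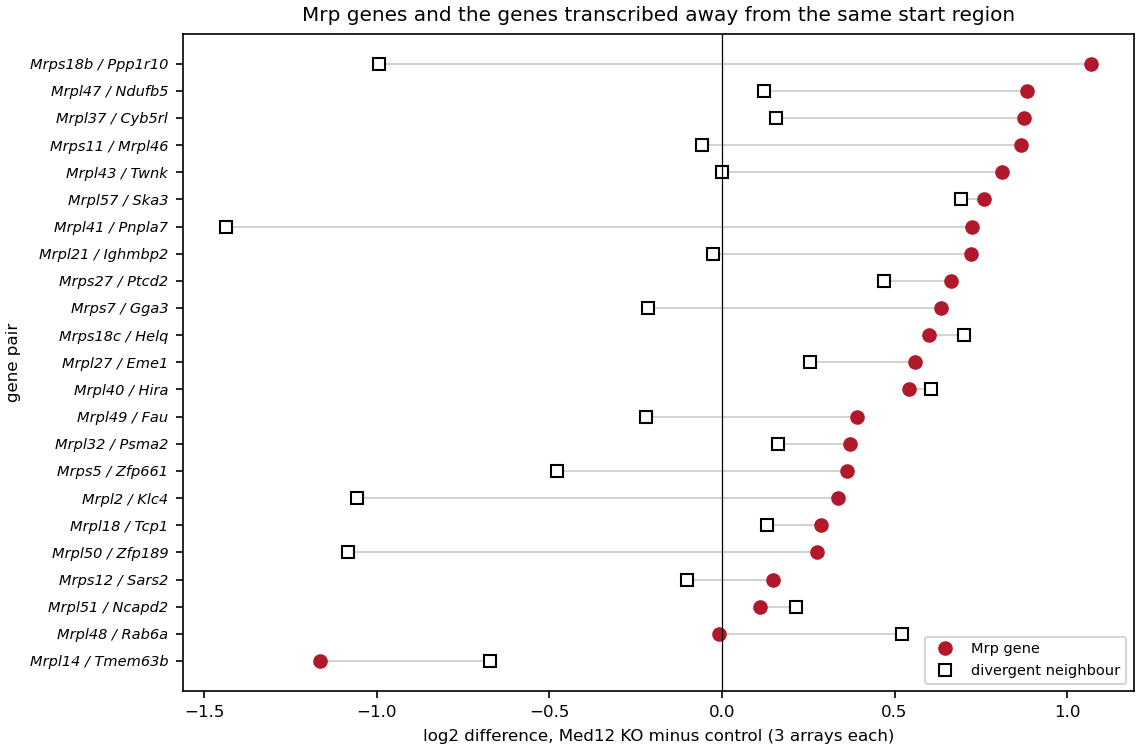
Log2 difference, Med12 KO minus control (3 arrays each), of members (red circles) and of the gene transcribed away from the same start region (open squares), 1 pair per line. Squares lie on both sides of 0, and most circles lie above it. Some squares are dim genes, whose changes are understated. For Mrps11 the square is the member Mrpl46.

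Markers of blood cell types differed between the same arrays. The summed signal of 7 erythroid genes was 4983 to 7107 in knockouts and 1496 to 1527 in controls. All 7 had a higher mean log2 signal in knockouts, and 6 passed limma's test, against 0.352% of all genes that passed higher. Rhag was at 2.87 (limma adjusted p = 0.0234), Blvrb at 1.81, Car1 at 1.76 and Gata1 at 2.03. The summed signal of 7 genes of granulocyte-monocyte progenitors was 623.4 to 1498 in knockouts and 8135 to 15254 in controls. All 7 had a lower mean log2 signal in knockouts, and 6 passed limma's test, against 0.638% of all genes that passed lower. Elane was at -5.44 (limma adjusted p = 0.0199), Irf8 at -4.06, Ctsg at -3.10 and Mpo at -3.46. The 6 lymphoid genes summed to 34.9 to 54.0 in knockouts and 1685 to 2347 in controls. By mean log2 signal 5 were lower and 1 higher in knockouts, and 3 passed as lower, among them Dntt (-5.59, limma adjusted p = 0.0163). The 5 mitotic genes summed to 6226 to 8033 in knockouts and 4226 to 5390 in controls, and 0 passed, with Cdk1 at 1.10, Plk1 at 0.85, Top2a at 0.63, Aurkb at 0.73 and Mki67 at 0.17. Megakaryocyte genes summed to 4551 to 5922 in knockouts and 2969 to 4335 in controls, mast cell and basophil genes to 1918 to 2152 and 1209 to 1429, mature myeloid genes to 59.1 to 279.3 and 282.4 to 559.3, and the 8 markers of the sorted cells to 2035 to 2772 and 5108 to 6511, in the same order. By gene, 4 mast cell and basophil genes were higher in knockouts and 1 lower, at -1.69. Among the sorted cell markers 7 were lower and 1 higher. No gene of these lists was at 0 on all arrays. Their part in the values of the mitochondrial ribosomal protein genes was not tested.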

How the data were processed

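The authors deposited 1 signal intensity per probe set and array. RMA is the tool the submitters' processing notes give, with no version. The deposited intensity values are linear and hold zeros, and their 2% trimmed mean was 150 on each array, so how they were made is not known here. Of 45101 probe sets 64 controls were left out. Genes were named from the platform annotation of the array, from probe sets with 1 symbol (34945; 932 had several and 9160 none). Values were taken as log2(signal + 16), which understates changes of dim genes, and tested two-sided with limma 3.58.1 (R 4.3.3; lmFit, then eBayes; 4 residual and 1.96 prior degrees of freedom, Benjamini-Hochberg over 45037 probe sets, threshold 0.05). Means and SDs are of deposited signals; the number of arrays limits the precision. Promoter matches and pairs were computed with Python 3.11.15.

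The members and lists were chosen with earlier results of these data known. Named members were Med12, the 12 most positive and 8 most negative differences, the 4 of highest signal, up to 4 per structural group by p, the S18 paralogs and the stalk proteins; members named beside these (Mrps2, Mrps14, Mrps16, Mrps12, Mrps30, Mrps23, Mrpl44) were chosen after their values were seen. From related lists, members past the threshold and up to 4 by p were named. The main test did not pair arrays by replicate number, and correlations of deviations for equal numbers were 0.02, 0.02 and 0.00. All value columns were used. Alternatives were the variance prior, array weights, the replicate block, 3 normalizations, offsets of 1 and 64, filters on dim probe sets, averaged probe sets, leaving out each array and a looser threshold.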

Additional observations from a re-analysis of the deposited data

How the results depend on the processing

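By limma's test 0 members passed in either direction under the alternatives, with 3 exceptions. After median centring 2 members were called higher, Mrpl37 (log2 1.15, limma adjusted p = 0.0400; 0.0400 to 0.259 over its alternatives) and Mrps11 (1.14, adjusted p = 0.0380; 0.0380 to 0.253). With the mean of a gene's probe sets 1 was, Mrps28 (0.75, adjusted p = 0.0471; 0.0471 to 0.306), where fewer features are tested, and at a threshold of 0.1, 3 were. The member median of 0.38 became 0.66 after median centring and 0.31 to 0.40 with 1 array left out, lowest without knockout replicate 2; the count of higher members was 65 to 70 with 1 array left out.

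The count of probe sets called moved from 343 to 0 with the replicate block, 693 with median centring, 42 with an offset of 1, 715 and 755 without the dimmest 25% and 50%, 1159 at the looser threshold, and 0 to 10 with 1 array left out (0 without knockout replicates 1 and 3, 3 without knockout replicate 2, 8 without control replicates 1 and 2 and 10 without control replicate 3). The labels give the arrays no more than a replicate number, and whether arrays of equal number share anything else is not known. Some of these settings also use fewer arrays or features, and the cause of the moves was not tested.

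Of 36 named members, 29 kept their sign throughout. Mrpl1, Mrpl19, Mrpl46, Mrpl48 and Mrps33 turned to 0.10, 0.24, 0.22, 0.26 and 0.24 after median centring, and Mrpl19 to 0.066 after quantile normalization and 0.36 with averaged probe sets. With 1 array left out, Mrpl1 ran from -0.29 to 0.0064, Mrpl11 from -0.18 to 0.37, Mrpl19 from -0.52 to 0.35, Mrpl46 from -0.39 to 0.17, Mrpl48 from -0.11 to 0.12, Mrpl51 from -0.064 to 0.23 and Mrps33 from -0.11 to 0.13.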

Other observations

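Mrpl30 and Mrpl53 were read only through probe sets that carry a second symbol and were left out of the 76. The brighter Mrpl30 probe set, shared with Gm6238, had signals of 1639.4, 1874.9 and 1692.5 in knockouts and 1524.7, 1478.1 and 1525.9 in controls, without overlap (log2 difference 0.20, limma adjusted p = 0.486). The dim one, shared with the same gene, went the other way, with all knockout arrays below all control arrays. Its signals were 26.3, 23.7 and 23.7 in knockouts and 28.9, 27.5 and 40.0 in controls (log2 difference -0.24, limma adjusted p = 0.496). The Mrpl53 probe set, shared with Ccdc142, had 447.1, 318.9 and 218.5 in knockouts and 246.1, 199.3 and 204.8 in controls (log2 difference 0.52; limma adjusted p = 0.424).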
